A study of Mus musculus with 10 samples.

Results

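The Rhox genes encode homeobox transcription factors that lie side by side in a single cluster on the mouse X chromosome. The levels of 6 of them, Rhox1, Rhox5, Rhox6, Rhox9, Rhox10 and Rhox13, were read from the RNA-seq table by their symbols, 6 of the 36066 genes listed. The table also holds 31 other Rhox genes and pseudogenes, which were used for comparison. RNA was sequenced from 10 libraries of C57BL6 mouse cells in 5 groups of 2: female embryonic stem cells (ESCs) from fertilized embryos, parthenogenetic ESCs (pESCs) from activated oocytes and so with maternal chromosomes alone, PGC-like cells (PGCLCs) made from each of these lines, and primordial germ cells (PGCs) taken from embryos. The study asked how close cells of parthenogenetic origin come to ESCs and to germ cells of the embryo. According to its methods both kinds of line came from mice with an Actin-GFP transgene and grew on mouse embryonic fibroblast feeders, PGCLCs were induced for 4 days with BMP4 (500 ng/ml) and other factors and sorted for SSEA1 and CD61, and PGCs were sorted for SSEA1 with or without CD61 from female embryos. The methods describe PGCs of an earlier and a later embryonic day as separate samples, and the labels do not give the day of either PGC library, so the 2 may differ in age. The study describes its RNA-seq as 2 biological replicates. Neither it nor the labels say whether the 2 libraries of a group came from separate lines, cultures or embryos. The errors below therefore measure the spread between libraries, and what sources of variation it covers is not known.

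Rhox genes are known from reproductive tissues, where different members are active in germ cells, in Sertoli and other somatic cells of the gonad, in the epididymis and in the placenta. In the embryo proper most of the cluster is kept silent, and DNA methylation is known to take part in this silencing. Rhox5, also called Pem, was the founding member and is known from embryonic stem cells, placenta and Sertoli cells. Rhox6 and Rhox9, also called Psx1 and Psx2, are a closely related pair known from placenta and germ cells. Rhox10 is known for its role in the establishment of spermatogonial stem cells, and Rhox13 is known from germ cells of the fetal and adult gonad.

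In GENCODE M21 (GRCm38) the cluster runs on chromosome X from 37213804 to 38129967, with 34 protein-coding Rhox genes and 2 other protein-coding genes inside it. Rhox1 (37213804 to 37222258, minus strand) and Rhox13 (38121219 to 38129967, plus strand) stand at its ends. Rhox5 (37804842 to 37808876, plus strand), Rhox6 (37826910 to 37829857, plus strand), Rhox9 (37899097 to 37901770, minus strand) and Rhox10 (38066475 to 38071691, plus strand) lie between them. Values counted here are for whole genes, over all annotated exons. None of the 100-base stretches of the transcripts of Rhox1, Rhox5, Rhox10 and Rhox13 recurred in another gene. For Rhox6 6.81% of such stretches recurred in Rhox9, and for Rhox9 2.45% recurred in Rhox6, so a small part of the reads of this pair could have been assigned to either.

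The promoters of the members are shown because all of them were higher in PGCLCs than in stem cells, and because CpG sites are where DNA methylation acts. RefSeq (GRCm38.p6) sequences matched 4 of the 6 members, and the 250 bases before the start site are given 5′ to 3′ on the strand of the gene, with each CG, and each TGTTCT or its complement AGAACA, in capitals. Rhox1 is at chrX:37222259-37222508 (minus strand), Rhox5 at chrX:37754358-37754607 (plus strand), Rhox10 at chrX:38066225-38066474 (plus strand) and Rhox13 at chrX:38120590-38120839 (plus strand).
Rhox1: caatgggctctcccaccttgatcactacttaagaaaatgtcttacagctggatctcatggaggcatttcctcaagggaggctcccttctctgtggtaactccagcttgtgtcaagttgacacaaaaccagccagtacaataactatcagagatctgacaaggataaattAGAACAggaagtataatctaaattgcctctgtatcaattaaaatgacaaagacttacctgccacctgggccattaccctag
Rhox5: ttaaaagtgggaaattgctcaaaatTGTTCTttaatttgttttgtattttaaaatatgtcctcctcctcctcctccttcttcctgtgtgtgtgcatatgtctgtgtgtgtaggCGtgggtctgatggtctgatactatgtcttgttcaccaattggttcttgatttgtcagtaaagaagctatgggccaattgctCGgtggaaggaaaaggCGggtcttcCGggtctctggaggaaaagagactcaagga
Rhox10: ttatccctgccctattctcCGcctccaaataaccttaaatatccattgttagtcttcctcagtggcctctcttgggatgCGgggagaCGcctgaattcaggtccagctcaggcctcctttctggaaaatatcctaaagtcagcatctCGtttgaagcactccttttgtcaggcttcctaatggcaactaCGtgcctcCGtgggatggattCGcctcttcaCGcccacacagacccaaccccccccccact
Rhox13: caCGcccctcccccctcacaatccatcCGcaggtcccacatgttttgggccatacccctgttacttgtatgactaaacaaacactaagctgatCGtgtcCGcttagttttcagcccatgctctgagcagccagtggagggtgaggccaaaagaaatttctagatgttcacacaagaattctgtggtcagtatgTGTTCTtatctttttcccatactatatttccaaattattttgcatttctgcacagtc
The RefSeq start of Rhox5 (37754608) lies 50234 bases upstream of the GENCODE gene, so the window printed for Rhox5 is not next to the exons over which its reads were counted. That of Rhox13 (38120840) lies 379 bases upstream of the GENCODE gene, and those of Rhox1 and Rhox10 are the GENCODE starts. The other 2 members are Rhox6 and Rhox9. The window of Rhox1 held 0 CG dinucleotides, those of Rhox5 and Rhox13 held 4 each and that of Rhox10 held 8, beside a median of 6 over 32851 promoters. As few as in Rhox1 were found in 7.87% of all promoters, and as few as in Rhox10 in 59.7%. The letters TGTTCT, searched on both strands, occurred 1 time each in Rhox1, Rhox5 and Rhox13, and they occur in 16.1% of all promoters. CACGTG (in 6.02% of all promoters), TCCCGC (16.9%), TATAAA (12.4%) and AGGTCA (14%) were not in these 4 windows.

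The deposited values are TPM, a unit that corrects the reads of a gene for its length and for the depth of the library, so levels can be set beside each other between genes. TPM multiplied by exon length gave back whole reads (within 0.05 of a read) for 95.1% to 95.4% of values, with 6779838 to 18572901 reads on genes per library. The ESC-PGCLC libraries were the shallowest. The summed level of 7 germ cell markers was 387 to 412 TPM in ESCs, 738 to 912 TPM in pESCs, 7635 to 7869 TPM in ESC-PGCLCs, 5970 to 6316 TPM in pESC-PGCLCs and 5416 to 6680 TPM in PGCs. Most of each sum was Dppa3, at 353 and 378 TPM in ESCs, 709 and 873 TPM in pESCs, 5628 and 5681 TPM in ESC-PGCLCs, 4938 and 4547 TPM in pESC-PGCLCs and 3165 and 4168 TPM in PGCs. The 7 did not order the groups alike. Between pESCs and ESCs 4 were higher in pESCs and 3 lower. Between PGCs and ESC-PGCLCs 4 were higher in PGCs and 3 lower. The 4 markers of pluripotent cells summed to 766 to 967 TPM in ESCs, 588 to 688 TPM in pESCs, 177 to 208 TPM in ESC-PGCLCs, 124 to 135 TPM in pESC-PGCLCs and 186 to 195 TPM in PGCs. They did not move alike: between ESCs and ESC-PGCLCs Pou5f1 (-4.24), Nanog (-4.23) and Zfp42 (-1.98) were called lower and Sox2 (1.42) higher on the log2 scale, and between the 2 kinds of PGCLC Pou5f1 was higher (1.75) and Sox2 lower (-1.92) in pESC-PGCLCs. Pou5f1 was at 19 to 23.5 TPM in ESCs and at 0.374 and 0 TPM in ESC-PGCLCs, below Nanog in every library. None of its 2300 100-base stretches recurred in the transcripts of another gene, but why its level was low in ESCs too was not tested, and its values are not read as a loss of the gene. Markers of other cells moved with the groups. The summed level of 7 blood markers was 2.1 to 2.24 TPM in ESCs, 0.0616 to 4.44 TPM in pESCs, 487 to 556 TPM in ESC-PGCLCs, 2870 to 3398 TPM in pESC-PGCLCs and 1961 to 2147 TPM in PGCs. Of these, 6 of 7 had a mean of at least 1 TPM in ESC-PGCLCs and in PGCs and 7 of 7 in pESC-PGCLCs, and none was listed at 0 in both libraries of these groups. Of 8 markers of gonadal somatic cells 7 were in the table, and their sum was 4.66 to 5.32 TPM in the stem cells, 16.8 to 21.1 TPM in ESC-PGCLCs, 32.2 to 37.3 TPM in pESC-PGCLCs and 66.6 to 73.7 TPM in PGCs. These 7 did not move alike. Nr5a1 was listed at 0 in all 4 stem cell libraries and had a highest value of 4.18 TPM elsewhere. Wt1 was at most 0.0931 TPM in the stem cells and at 26.2 and 22.4 TPM in PGCs. Amhr2 was at 3.57 to 4.71 TPM in the stem cells, 1.26 and 2.33 TPM in ESC-PGCLCs and 21.7 and 19.2 TPM in PGCs. From ESCs to ESC-PGCLCs 6 of the 7 went up and 1, Amhr2, went down. The 8 trophoblast markers summed to 35.9 to 41.1 TPM in ESCs, 27.8 to 29.3 TPM in pESCs and 6.3 to 16.9 TPM in the other groups. The 8 markers of primitive and visceral endoderm summed to 0.178 to 0.635 TPM in the stem cells and 6.86 to 24.3 TPM in the other groups, and the 6 fibroblast markers to 0.276 to 0.435 TPM and 3.62 to 9.34 TPM. Of these 6, Col3a1 alone reached a group mean of 1 TPM, at 2.42 to 7.45 TPM in the PGCLC and PGC libraries. Thy1 went the other way, from 0.0562 to 0.109 TPM in the stem cells to at most 0.0392 TPM. In such bulk samples fewer cells of a type and less RNA per cell cannot be told apart.

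All 6 Rhox genes were higher in PGCLCs than in the stem cells from which these were made, for both ESCs and pESCs. Every one of the 6 PGCLC and PGC libraries lay above every one of the 4 stem cell libraries for all 6 members. This was so for 20 of the 27 other Rhox genes tested and for 27.3% of all 27259 genes tested. In the ESC lineage the fold of mean TPM was largest for Rhox9 (55.4) and smallest for Rhox1 (3.6), and in the pESC lineage it was largest for Rhox1 (52.9, against 4 reads in pESCs) and smallest for Rhox5 (7.65). Rhox5 was the most abundant member in each library.

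**Figure D1:**
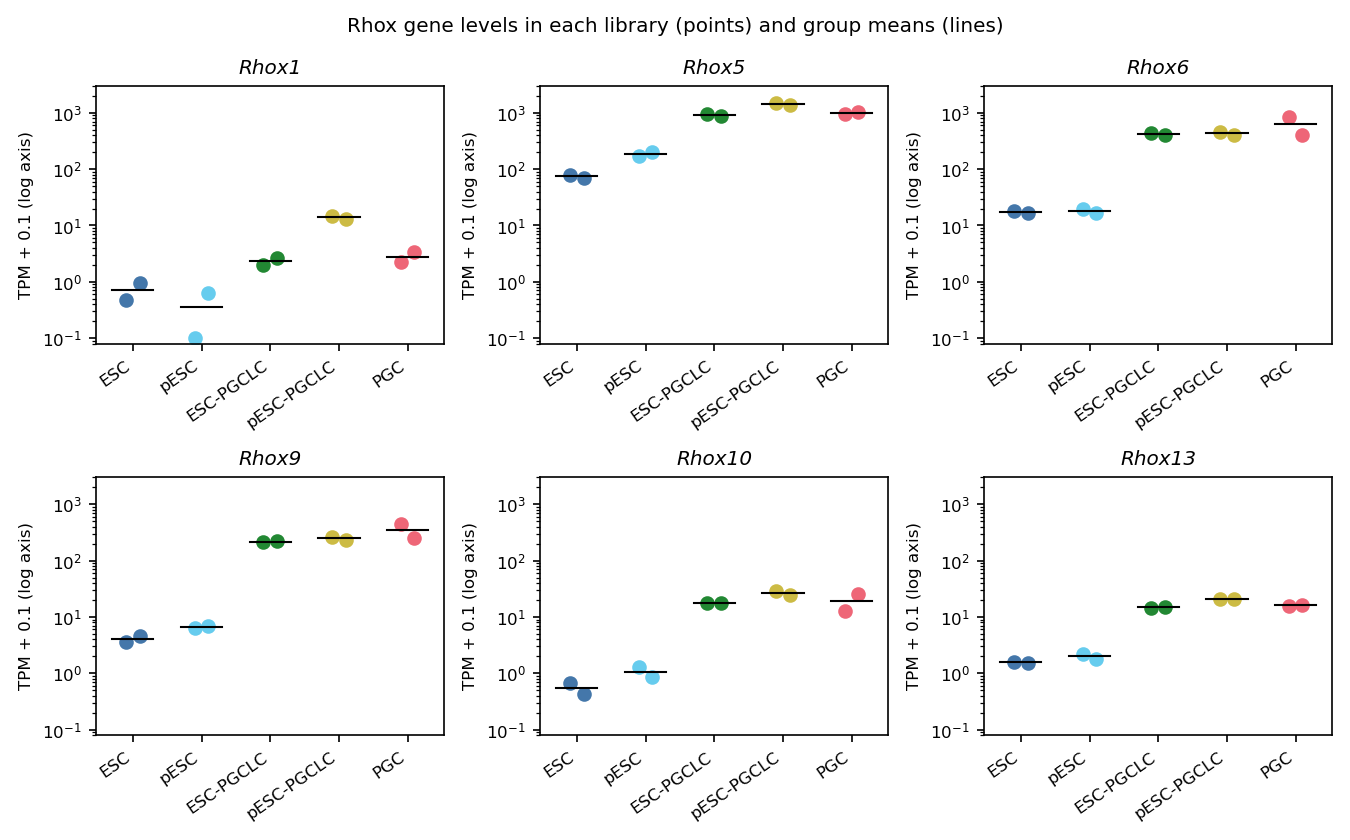
Levels of the 6 Rhox genes in TPM + 0.1 on a log axis, 1 panel per gene, with a point for each library and a line at the mean of each of the 5 groups (2 libraries each). In every panel the PGCLC and PGC points sit above all stem cell points, and Rhox1 alone has its pESC-PGCLC points, at 14.8 and 12.9 TPM, far above those of both ESC-PGCLCs and PGCs.

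Rhox5 was at 80.2 and 69.3 TPM in ESCs, 174 and 201 TPM in pESCs, 942 and 893 TPM in ESC-PGCLCs, 1472 and 1398 TPM in pESC-PGCLCs and 940 and 1016 TPM in PGCs. ESCs, pESCs and pESC-PGCLCs each stood apart from all other groups, while ESC-PGCLCs and PGCs overlapped. By rank, Rhox5 was gene number 1516 and 1624 of all genes in the ESC libraries, 686 and 743 in the pESC libraries, and between 92 and 170 in the PGCLC and PGC libraries. Its mean rose 12.3-fold from ESCs (74.7 ± 7.71 TPM, SD, n = 2) to ESC-PGCLCs (918 ± 34.4 TPM) and 7.65-fold from pESCs (188 ± 19.4 TPM) to pESC-PGCLCs (1435 ± 52.2 TPM). On the log2(TPM + 1) scale, which understates the change of low genes and is used for all tests, these were differences of 3.60 (SE 0.142) and 2.93 (SE 0.142).

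Rhox6 was at 17.7 and 16.7 TPM in ESCs, 19.9 and 16.3 TPM in pESCs, 441 and 410 TPM in ESC-PGCLCs, 452 and 410 TPM in pESC-PGCLCs and 851 and 397 TPM in PGCs. The values fell into 2 levels, with ESCs overlapping pESCs, and with ESC-PGCLCs, pESC-PGCLCs and PGCs overlapping one another. PGC replicate 1 stood apart with more than any other library. The mean rose 24.7-fold from ESCs to ESC-PGCLCs and 23.8-fold from pESCs to pESC-PGCLCs, with log2 differences of 4.55 (SE 0.31) and 4.50 (SE 0.31).

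Rhox9, the partner of Rhox6, was at 3.49 and 4.4 TPM in ESCs, 6.22 and 6.82 TPM in pESCs, 218 and 219 TPM in ESC-PGCLCs, 265 and 236 TPM in pESC-PGCLCs and 447 and 251 TPM in PGCs. The mean rose 55.4-fold in the ESC lineage and 38.4-fold in the pESC lineage, with log2 differences of 5.48 (SE 0.252) and 5.06 (SE 0.252). As for Rhox6, PGC replicate 1 was the highest library. The ratio of Rhox6 to Rhox9 TPM was 5.08 and 3.81 in ESCs and 3.21 and 2.4 in pESCs, against 1.59 to 2.02 in the 6 PGCLC and PGC libraries. Rhox6 exceeded Rhox9 in every library, and the stem cell ratios did not overlap those of the other groups.

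Rhox10 was barely detected in the stem cells, at 0.569 and 0.331 TPM in ESCs (4 and 3 reads) and 1.19 and 0.756 TPM in pESCs (8 and 5 reads). It was at 17.6 and 17.7 TPM in ESC-PGCLCs, 29.1 and 24.9 TPM in pESC-PGCLCs and 12.9 and 25.7 TPM in PGCs. The PGC libraries span the ESC-PGCLC values and overlap pESC-PGCLCs. The log2 differences from the stem cells were 3.69 (SE 0.293) for ESC-PGCLCs and 3.83 (SE 0.293) for pESC-PGCLCs.

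Rhox13 was at 1.49 and 1.44 TPM in ESCs (12 and 15 reads), 2.08 and 1.71 TPM in pESCs (16 and 13 reads), 14.4 and 14.9 TPM in ESC-PGCLCs, 20.9 and 20.5 TPM in pESC-PGCLCs and 15.7 and 16.3 TPM in PGCs. No 2 groups overlapped, in the order ESCs, pESCs, ESC-PGCLCs, PGCs and pESC-PGCLCs from low to high, and the widest step was that from stem cells to PGCLCs. The small steps are uncertain. That from ESCs to pESCs (27 and 29 reads) was 0.23 on the log2 scale (95% interval -0.09 to 0.55). Both pESC libraries lay above both ESC libraries for 11.7% of all genes. That from ESC-PGCLCs to PGCs was 0.12 (-0.19 to 0.44), and its sign turned with quantile normalization or median centring. The mean rose 10-fold in the ESC lineage and 10.9-fold in the pESC lineage, with log2 differences of 2.67 (SE 0.137) and 2.91 (SE 0.137).

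Rhox1 was the lowest member in every library but ESC replicate 2, at 0.369 and 0.857 TPM in ESCs (3 and 9 reads) and 0 and 0.523 TPM in pESCs (0 and 4 reads). It was at 1.9 and 2.5 TPM in ESC-PGCLCs (8 and 9 reads), 14.8 and 12.9 TPM in pESC-PGCLCs (111 and 107 reads) and 2.13 and 3.26 TPM in PGCs (12 and 26 reads). The pESC-PGCLC libraries stood apart from all others, and ESC-PGCLCs and PGCs overlapped. The log2 difference was 1.00 (SE 0.279) between ESC-PGCLCs and ESCs and 3.58 (SE 0.279) between pESC-PGCLCs and pESCs.

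Differences between groups were tested with limma over 27259 genes that reached 0.1 TPM in 2 or more libraries. A gene was called where its Benjamini-Hochberg adjusted p was under 0.05 and its change 2-fold or more. All 6 members passed this filter. With 2 libraries against 2, the smallest two-sided p of an exact permutation test is 0.333, and the p-values below depend on the spread that limma pools over genes and groups. Between ESC-PGCLCs and ESCs 6 of 6 members were called higher, where 15.3% of all genes tested were called higher and 14.5% lower. The adjusted p of limma ranged from 2.48e-06 (Rhox5) to 0.0192 (Rhox1), and the median log2 difference of the members was 3.65 beside 0.05 over all genes. The Rhox1 call stood at the limit of 2-fold and rests on few reads. It was lost without ESC replicate 1 (log2 difference 0.78, adjusted p = 0.13), without ESC-PGCLC replicate 2 (0.87, adjusted p = 0.1) and in other alternatives given in the closing section. Between pESC-PGCLCs and pESCs 6 of 6 members were also called higher, where 20.8% of all genes were called higher and 6.8% lower. Here the adjusted p ranged from 6.14e-06 (Rhox13) to 4.87e-05 (Rhox1), and the median log2 difference was 3.71 beside 0.22 over all genes. Blood, gonadal and endoderm markers were higher in the same libraries, as given above, and their part in these results was not tested.

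**Figure D2:**
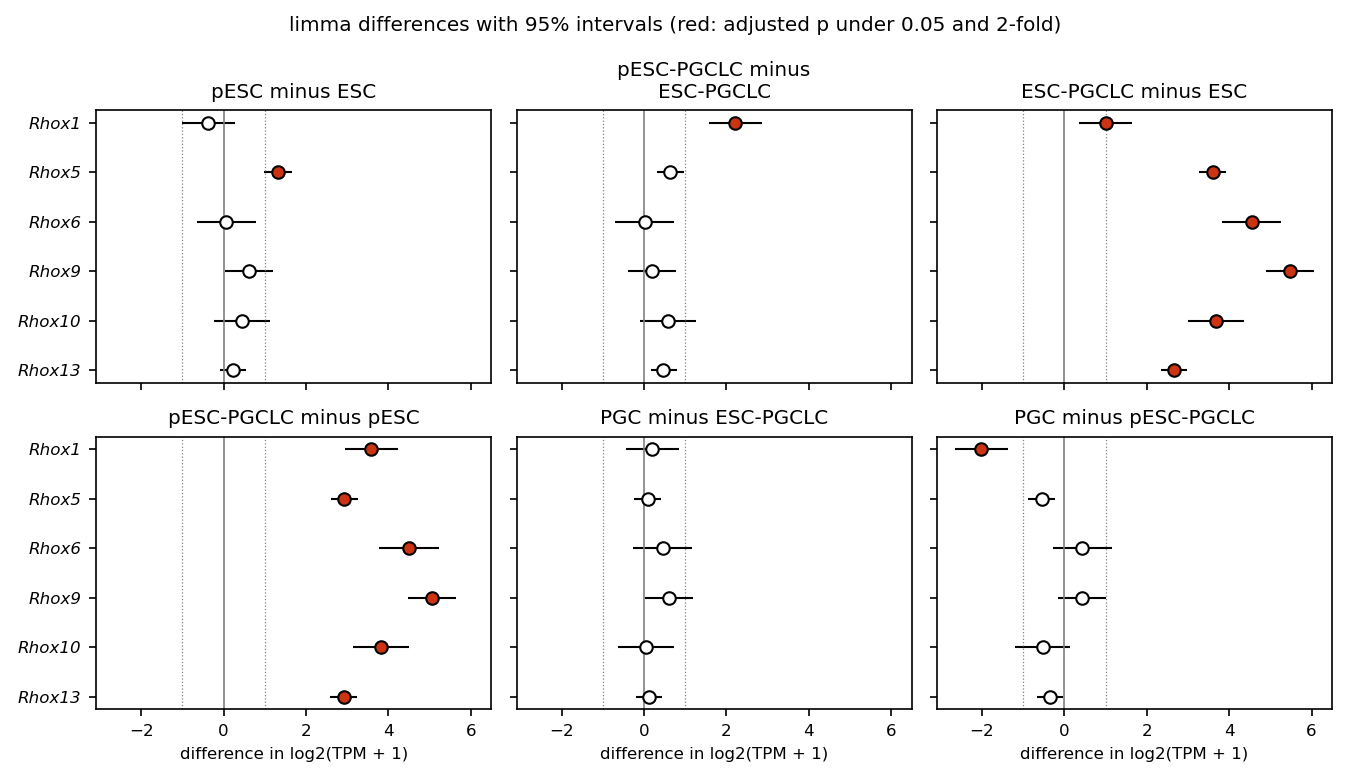
Differences in log2(TPM + 1) for the 6 Rhox genes in 6 comparisons, 1 panel each, with limma's 95% intervals, red where the adjusted p is under 0.05 and the change at least 2-fold (dotted lines). All 6 points are red and right of 0 in both comparisons of PGCLCs with stem cells, and the other panels hold at most 1 red point, Rhox5 or Rhox1.

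The next question was whether parthenogenetic origin changed the level of the Rhox genes. In the stem cells Rhox5 was the member that differed, at 2.51-fold the ESC mean in pESCs. Its log2 difference was 1.32 (SE 0.142, adjusted p = 0.0125 by limma), and 1 of 6 members was called higher, where 0.165% of all genes were called higher and 0.616% lower. The call was lost when ESC replicate 1 (adjusted p = 0.0619) or ESC replicate 2 (adjusted p = 0.0699) was left out, and in a fit of these 2 groups alone (adjusted p = 0.219), with log2 differences of 1.21 to 1.42. The other 5 members were not called. Both pESC libraries lay above both ESC libraries for Rhox5, Rhox9, Rhox10 and Rhox13, 4 of 6 members, where 11.7% of all genes did so. The log2 differences of the latter 3 were 0.61 (95% interval 0.03 to 1.19), 0.44 (-0.24 to 1.12) and 0.23 (-0.09 to 0.55). Those of Rhox6, 0.06 (-0.65 to 0.78), and of Rhox1, -0.37 (-1.02 to 0.28), spanned 0. Over all genes the median log2 difference was -0.06, and with libraries centred on the median of broadly expressed genes it moved to 0.28, with Rhox5 at 1.65.

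Among PGCLCs the member that passed both thresholds was Rhox1. It was 6.27-fold higher in pESC-PGCLCs (13.8 ± 1.33 TPM, SD, n = 2) than in ESC-PGCLCs (2.2 ± 0.424 TPM), with a log2 difference of 2.21 (SE 0.279, adjusted p = 0.00123 by limma). It was the member called, 1 of 6 (16.7%), a share near the 13.4% of all genes called, 10.3% higher and 3.08% lower. This call was kept without each of the 4 libraries in turn and in every alternative run. Rhox5 (0.64, SE 0.142, adjusted p = 0.0143) and Rhox13 (0.47, SE 0.137, adjusted p = 0.0403) passed the p threshold with less than 2-fold change. Neither kept this when any 1 of the 4 libraries was left out (adjusted p of 0.0544 to 0.0823 for Rhox5 and 0.112 to 0.147 for Rhox13). With median centring, which moves the median of all genes from 0.12 to -0.29, Rhox5 was at 0.24 (adjusted p = 0.228) and Rhox13 at 0.06 (adjusted p = 0.772). Rhox13 also missed the threshold with a pseudocount of 0.1 (adjusted p = 0.07), quantile normalization (0.08, adjusted p = 0.779), the replicate block (adjusted p = 0.0581) and voom (adjusted p = 0.33). Both pESC-PGCLC libraries were above both ESC-PGCLC libraries for 5 of 6 members, all but Rhox6, where 41.8% of all genes were. The differences of Rhox6 (0.02, 95% interval -0.7 to 0.73), Rhox9 (0.19, -0.39 to 0.78) and Rhox10 (0.58, -0.1 to 1.26) had intervals that include 0. The signs of Rhox6 and Rhox9 turned with quantile normalization or median centring of the libraries. The summed blood markers were also highest in pESC-PGCLCs, at 2870 to 3398 TPM against 487 to 556 TPM in ESC-PGCLCs and 1961 to 2147 TPM in PGCs. Those of gonadal somatic cells were higher in pESC-PGCLCs than in ESC-PGCLCs and highest in PGCs. Rhox1 was at 2.13 and 3.26 TPM in PGCs. The part of such cells in the Rhox1 difference was not tested.

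The change on differentiation itself was then compared between the 2 origins with an interaction term, which shares all 8 cultured libraries with the comparisons above. Rhox1 rose more from pESCs to pESC-PGCLCs than from ESCs to ESC-PGCLCs, with a difference of 2.58 between the 2 log2 changes (SE 0.394, adjusted p = 0.00305 by limma). It was the 1 of 6 members called (16.7%), a share near the 19.1% of all genes called. Of all genes 15.5% were called with a greater and 3.53% with a lesser change in the pESC lineage. The size of the Rhox1 difference depends on the pseudocount, because Rhox1 had 4 reads in total in pESCs. For Rhox5 the rise was smaller in the pESC lineage by less than 2-fold (-0.67, SE 0.201, adjusted p = 0.0477). With median centring, which moves the median of all genes from 0.21 to -0.54, this difference was -1.42 (adjusted p = 0.00239) and Rhox9 was also called (-1.16, adjusted p = 0.0265). For the other 4 members the differences lay between -0.42 and 0.24 and their 95% intervals included 0, the widest running from -1.06 to 0.97 for Rhox6.

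PGCs of the embryo were compared with both kinds of PGCLC, with the same 2 PGC libraries in each comparison. Against ESC-PGCLCs 0 of 6 members were called by limma, where 12% of all genes were called higher in PGCs and 1.88% lower. At an unadjusted p under 0.05 there was 1, Rhox9, with a log2 difference of 0.61 (95% interval 0.03 to 1.2), and voom on recovered reads called 0. The differences of the other members lay between 0.05 (Rhox10) and 0.45 (Rhox6), and the intervals allowed up to 1.17 for Rhox6. These signs depend on the scaling: with median centring Rhox1, Rhox5, Rhox6, Rhox10 and Rhox13 turned to between -0.56 and -0.16, with Rhox5 (adjusted p = 0.0255) and Rhox13 (adjusted p = 0.0468) past the p threshold at less than 2-fold. Against pESC-PGCLCs 1 of 6 members was called, Rhox1, which was lower in PGCs (-2.02, SE 0.279, adjusted p = 0.0138), where 2.07% of all genes were called higher and 1.6% lower. The call was lost without pESC-PGCLC replicate 1 (adjusted p = 0.0852), without pESC-PGCLC replicate 2 (adjusted p = 0.0993) and without PGC replicate 1 (adjusted p = 0.065), with log2 differences of -2.11 to -1.80. Rhox5 was lower in PGCs by 0.55 on the log2 scale, which missed the threshold (adjusted p = 0.0518). The 2 PGC libraries differed most for Rhox6 (624 ± 321 TPM, SD, n = 2), Rhox9 (349 ± 139 TPM) and Rhox10 (19.3 ± 9.01 TPM). Replicate 1 held more Rhox6 and Rhox9 and less Rhox10 than replicate 2. Without PGC replicate 2, Rhox9 was called higher in PGCs than in ESC-PGCLCs (1.03, adjusted p = 0.00714), and Rhox10 was called lower in PGCs than in pESC-PGCLCs beside Rhox1 (-1, adjusted p = 0.0331).

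Set beside all 37 Rhox genes and pseudogenes listed, the 6 members held most of the RNA. These 37 include Rhox7-ps1, which starts at 38296868, beyond the cluster end given above. The summed level of all 37 Rhox genes was 97.6 and 111 TPM in ESCs, 217 and 242 TPM in pESCs, 1894 and 1961 TPM in ESC-PGCLCs, 2521 and 2781 TPM in pESC-PGCLCs and 2079 and 2687 TPM in PGCs. The 6 members made up 93.5% to 95.3% of this in the stem cells and 81.1% to 84.4% in the other groups. Rhox5 alone held 71% to 83.1% in the stem cells and 35% to 55.5% in the other groups. The share of Rhox6 was 6.74% to 9.17% in pESCs, 16% to 17.2% in ESCs and 16.2% to 31.7% in the others. Rhox9 took 2.81% to 4.5% in the stem cells and 9.35% to 16.6% in the others. The number of Rhox genes at 1 TPM or more was 5 to 8 in the stem cell libraries and 21 to 25 in the others.

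**Figure D3:**
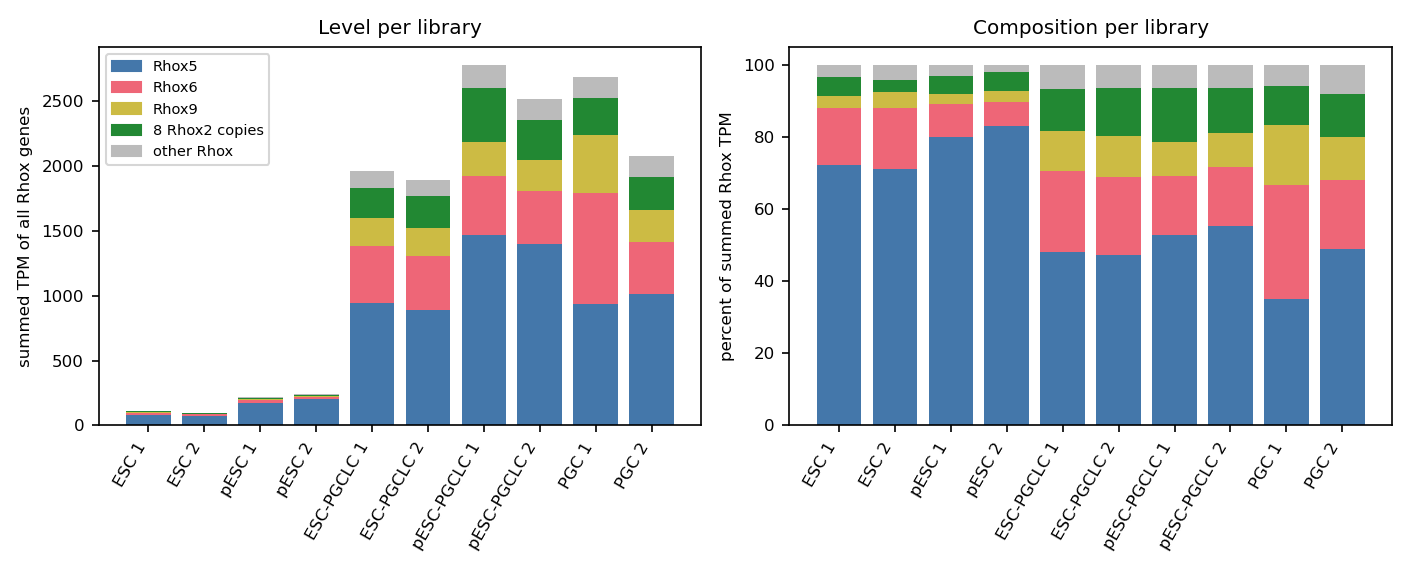
Summed TPM of all Rhox genes in each of the 10 libraries (left, linear axis from 0) and the share of that sum in percent (right), stacked by Rhox5, Rhox6, Rhox9, the 8 Rhox2 copies and all other Rhox genes. The sum lies below 250 TPM in the 4 stem cell libraries and at 1894 TPM or more in the 6 others, in which the share of Rhox5 is smaller.

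Of the 31 other Rhox genes, 27 passed the filter on low values, and 19 reached a group mean of at least 1 TPM. These were Rhox2a to Rhox2h, Rhox2-ps, Rhox4c, Rhox4d, Rhox4e, Rhox4g, Rhox7a, Rhox7b, Rhox7-ps1, Rhox7-ps2, Rhox8 and Rhox11-ps2. Among the 27, 13 were called higher and 0 lower in ESC-PGCLCs against ESCs, where 15.3% of all genes were called higher and 14.5% lower. In pESC-PGCLCs against pESCs 14 were called higher and 0 lower, where 20.8% of all genes were called higher and 6.8% lower. Their median log2 differences were 1.69 and 1.53, beside 3.65 and 3.71 for the 6 members, on a scale that compresses low genes. By fold of mean TPM other Rhox genes lay above every member, such as Rhox2c at 92-fold in the ESC lineage and 76.2-fold in the pESC lineage. The filter keeps genes through the groups where they are high, so these counts describe the genes that passed. Rhox8 is known from Sertoli cells. It was at 0.0451 TPM in ESCs (mean of 2 libraries, 1 read in all) and at 12.4 TPM in ESC-PGCLCs, 7.36 TPM in pESC-PGCLCs and 11.5 TPM in PGCs. Rhox2g had 0 reads in all 4 stem cell libraries, and at 23.2 TPM in ESC-PGCLCs and 31.2 TPM in pESC-PGCLCs it was at least 128-fold and 145-fold higher (against 3 reads over the group). Rhox2a was the highest of the others, at 3.42 TPM in ESCs, 8.97 TPM in pESCs, 111 TPM in ESC-PGCLCs, 156 TPM in pESC-PGCLCs and 116 TPM in PGCs. For the Rhox2 copies 10.7% to 90.9% of 100-base stretches recur in another copy, so the single copies are uncertain. As a sum, the 8 Rhox2 genes went from 3.24 to 13.1 TPM in the stem cells to 228 to 411 TPM in the other groups. Rhox2f stayed low, with group means of 0.136 to 1.21 TPM, and was called in neither lineage. The 6 Rhox3 genes together stayed at or below 1.42 TPM in every library. The 8 Rhox4 genes together went from 0.436 to 1.04 TPM to 6.5 to 9.28 TPM. The 2 Rhox7 genes, Rhox7a and Rhox7b, summed to 0.0771 to 0.614 TPM in the stem cells and 35.6 to 65.2 TPM in the others. Between pESCs and ESCs 0 of the 27 were called by limma (1, Rhox2a, at an unadjusted p under 0.05, and 0 by voom), and between the 2 kinds of PGCLC 0 were called (11 at an unadjusted p under 0.05, and 0 by voom). Of all genes 0.781% and 13.4% were called in these 2 comparisons. Between PGCs and ESC-PGCLCs 1 of the 27 was called, Rhox7a (1.02), where 13.8% of all genes were. Between PGCs and pESC-PGCLCs 0 were called (4 at an unadjusted p under 0.05, and 0 by voom), where 3.67% of all genes were. The interaction called 1 of the 27, Rhox2d (1.03), where 19.1% of all genes were called. Neither the Rhox7a nor the Rhox2d count was stable when single libraries were left out (given in the closing section).

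The neighbours of the cluster were compared in the same way. Of the 10 protein-coding genes on each side, 15 were tested. Between ESC-PGCLCs and ESCs 9 of the 15 were called higher and 2 lower, with a median log2 difference of 1.21 beside 0.05 over all genes, of which 15.3% were called higher and 14.5% lower. Between pESC-PGCLCs and pESCs 8 were called higher and 3 lower, with a median of 1.12 beside 0.22 over all genes, of which 20.8% were called higher and 6.8% lower. In the ESC lineage the neighbours that rose most were Zbtb33 (3.38) and Tmem255a (3.28), which lie just beyond Rhox13, and those that fell were Mcts1 (-2.76) and Rnf113a1 (-2.60). In the pESC lineage Zbtb33 (2.99) and Nkrf (2.93) rose most, and Mcts1 (-2.31) and Rpl39 (-1.30) fell most. Zbtb33 encodes Kaiso, a protein that binds methylated DNA.

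Enzymes known to write, read or remove DNA methylation and repressive histone marks were read beside the Rhox genes, from a list of 14. Between ESC-PGCLCs and ESCs 5 were called higher and 3 lower, where 15.3% of all genes were called higher and 14.5% lower. The largest changes were those of Dnmt3l (-3.17), a cofactor of de novo methylation, Dnmt3b (-2.24), a de novo methyltransferase, and Uhrf1 (-2.21), which brings the maintenance methyltransferase to DNA. Between pESC-PGCLCs and pESCs 7 were called higher and 3 lower, where 20.8% of all genes were called higher and 6.8% lower. The largest there were those of Hells (2.17), a chromatin remodeller needed for methylation, Dnmt1 (1.98), the maintenance methyltransferase, and Setdb1 (1.85), a histone methyltransferase. In both lineages Dnmt3b, Dnmt3l and Uhrf1 were the 3 called lower, and Dnmt1 and Hells were among those called higher. Tet1 was lower by less than 2-fold in both (-0.74, adjusted p = 0.016, and -0.56, adjusted p = 0.0493). Trim28 was lower by less than 2-fold in the ESC lineage (-0.94, adjusted p = 0.00477) and called higher in the pESC lineage (1.31). Between pESCs and ESCs 0 of 14 passed both thresholds, with Dnmt3l at -0.90 (adjusted p = 0.0484, less than 2-fold). Of all genes 0.165% were called higher there and 0.616% lower. Between pESC-PGCLCs and ESC-PGCLCs 1 of 14 was called (7.14%), Trim28 (1.60), a corepressor of zinc finger proteins. This is below the 13.4% of all genes called there, 10.3% higher and 3.08% lower. The part of these enzymes in the Rhox levels was not tested.

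Of 7 genes linked to RHOX factors, as reported targets or as germ cell genes active beside them, 6 were tested. In both lineages the same 4 were called higher in PGCLCs, where 15.3% (ESC lineage) and 20.8% (pESC lineage) of all genes were, namely Dazl (6.92 in the ESC lineage and 6.10 in the pESC lineage), Stra8 (5.65 and 5.86), Dmrt1 (4.23 and 3.73) and Ins2 (2.05 and 3.05). Dazl and Stra8 act in germ cell development and entry into meiosis, Dmrt1 in gonadal and germ cell differentiation, and Ins2 encodes insulin. Unc5c and Nanos2 were not called, with log2 differences between 0 and 0.47, and Zbtb16, known from spermatogonial stem cells, was listed at 0 in 9 of the 10 libraries. Between pESCs and ESCs 0 of the 6 were called by limma, where 0.781% of all genes were, and 1, Stra8 (0.72), had an unadjusted p under 0.05.

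Over the 10 libraries the members followed one another to different degrees. On the log2(TPM + 1) scale Pearson's r was 0.996 between Rhox6 and Rhox9 and 0.993 between Rhox10 and Rhox13, while Rhox1 had values of 0.732 to 0.823 with the other 5. These values describe 10 libraries that fall into stem cells and the rest. The genes whose pattern was most like that of a member were looked up among 17694 genes that reached 1 TPM in 2 or more libraries. For Rhox5 these were Phlda2 (r = 0.9994), Fxyd5 (0.9936) and Xlr3c (0.9936). Phlda2, an imprinted gene of the placenta, had means of 24.3 TPM in ESCs, 65.2 TPM in pESCs, 407 TPM in ESC-PGCLCs, 752 TPM in pESC-PGCLCs and 447 TPM in PGCs, the order of the groups seen for Rhox5. For Rhox6 they were Arhgef28 (0.9975), Zfp438 (0.9965) and Rhox9 (0.9960), and for Rhox9 they were Casc4 (0.9974), Arhgef28 (0.9965) and Rhox6 (0.9960). For Rhox10 they were 4930550L24Rik (0.9945), Mthfsl (0.9944) and Cep112 (0.9941), and for Rhox13 Gm3143 (0.9988), 4930550L24Rik (0.9981) and F530104D19Rik (0.9973). For Rhox1 the closest were lower, at 0.9814 for Med28, 0.9756 for Gm9974 and 0.9753 for Nudt6, each with its highest mean in pESC-PGCLCs. All genes named here were picked by r over the same 10 libraries, so a group order like that of the member follows from the choice.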

How the data were processed

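RNA was sequenced in 10 libraries, 2 for each of the 5 groups. The authors mapped reads to mm10 with Hisat2 and counted them on genes with Feature-counts, per their methods, and deposited TPM for 36066 gene symbols. The submitters' processing notes name Bowtie2, HISAT2, RSEM, DESeq2 and R 3.4.2. The tool that gave the TPM and the annotation are not given in the sources used here, and the methods (Smart-seq2) and labels (NEBNext) differ on library preparation.

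The 6 symbols were matched exactly. Exon lengths from GENCODE M21 (35861 of 36066 symbols with a single gene) were used to recover reads and depth. Floors of 3 reads cover counting error only. With R 4.3.3 and limma 3.58.1, log2(TPM + 1) of genes that reached 0.1 TPM in 2 or more libraries was fitted with a mean per group over all 10 libraries, with trended empirical Bayes variances and Benjamini-Hochberg adjustment over all 27259 genes. Python 3.11.15 with numpy 2.4.6, pandas 2.3.3 and matplotlib 3.10.9 served for the rest. The procedure was tested on simulated data.

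The 6 members are named always, other Rhox genes when a group mean reached 1 TPM, neighbours and list genes when called (at most 2 each way and 3 per list), and the 3 genes most like each member. Other Rhox genes are given as counts or sums. Named outside the rule, after their values were seen, are Unc5c, Nanos2, Zbtb16, Nr5a1, Wt1, Amhr2, Pou5f1, Sox2, Nanog, Zfp42, Rhox2c's fold, Tet1, Trim28, Dnmt3l between stem cells, Dnmt1 and Hells in the second lineage and Ins2. The list of genes linked to RHOX factors is given without 1 gene, which is not reported here. The members and lists were chosen with earlier results of these data known. The processing was varied with a pseudocount of 0.1, with a 1 TPM filter or none, with the compared groups alone, with quantile normalization, with median centring (on 9024 genes), with a replicate block, with no minimum fold change and without each library in turn. Voom on recovered reads was added after seeing the data. Replicate numbers recur in each group, and the deviations of same-numbered libraries had correlations of -0.0507 to 0.0449 over 14839 genes, so the numbers were not taken to pair libraries.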

Additional observations from a re-analysis of the deposited data

Results flagged for a closer look

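Rhox1 differed between the 2 origins in its change from stem cells to PGCLCs, by a test of the difference itself. It was the 1 of 6 members called (16.7%), a share near the 19.1% of all genes called. The log2(TPM + 1) change of Rhox1 was greater in the pESC lineage by 2.58 (SE 0.394, adjusted p = 0.00305 from limma's interaction term). The alternatives gave 1.84 (median centring) to 4.07 (voom on recovered reads), with an adjusted p between 0.00144 and 0.0339. Both pESC-PGCLC libraries (14.8 and 12.9 TPM) lay above both ESC-PGCLC libraries (1.9 and 2.5 TPM), and the pESC libraries (0 and 0.523 TPM) overlapped the ESC libraries (0.369 and 0.857 TPM). Groups of 2 libraries are too small for a test of single outlying libraries.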

How the results depend on the processing

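Each comparison was recomputed under the alternatives named in the methods and without each library in turn. The number of members called kept within 1.5 times its value (5 or 6 of 6) in both comparisons of PGCLCs with their stem cells under every alternative. The member lost there was Rhox1 in ESC-PGCLCs against ESCs, with a log2 difference of 1.77 (adjusted p = 0.0952) at a pseudocount of 0.1, 1.00 (0.0506) in the compared groups alone, 0.92 (0.0428) with quantile normalization and 1.79 (0.071) with voom. The member calls for pESCs against ESCs fell to 0 with the compared groups alone and ranged from 0 to 1 without single libraries, and those for PGCs against pESC-PGCLCs fell to 0 with a pseudocount of 0.1 and with the compared groups alone and ranged from 0 to 2 without single libraries. Those for PGCs against ESC-PGCLCs ranged from 0 to 1 without single libraries. With no minimum fold change 3 members were called between the 2 kinds of PGCLC, where 23.8% of all genes were. In the interaction 2 were called by that setting, where 22.9% of all genes were, and 3 with median centring, where 21.2% were. With the compared groups alone 0 of all genes were called between pESCs and ESCs and between PGCs and either kind of PGCLC.

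The replicate block changed no call of a member. It gave 1 in place of 0 of the other Rhox genes between the 2 kinds of PGCLC, as did a filter of 1 TPM and the compared groups alone (1 each), while quantile normalization and median centring gave 2 each, no minimum fold change 3, and leaving out single libraries 0 to 1. Replicate numbers are shared by all groups, and with 2 libraries per group they were not taken as a pairing. For the other Rhox genes, median centring called 1 between pESCs and ESCs, where 0.701% of all genes were called. Voom called 21 between ESC-PGCLCs and ESCs, where 45.4% of all genes were called. With all libraries kept, the settings named in this paragraph called 10.6% to 23.8% of all genes between the 2 kinds of PGCLC. The shares were 0% to 31.1% between PGCs and ESC-PGCLCs and 14.2% to 31.1% in the interaction. Between PGCs and ESC-PGCLCs, a pseudocount of 0.1, the compared groups alone, quantile normalization, median centring and voom called 0 each, no minimum fold change 2, and leaving out single libraries 0 (without ESC-PGCLC replicate 2 or PGC replicate 1) to 3 (without ESC-PGCLC replicate 1). In the interaction, a pseudocount of 0.1 and voom called 0 each, quantile normalization 2, median centring 5, and leaving out single libraries 0 to 1, with 1 only without ESC-PGCLC replicate 1.

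Signs of small log2 differences turned as follows, and the cause was not tested. Between the 2 kinds of PGCLC, Rhox6 and Rhox9 were at -0.13 and -0.07 with quantile normalization and at -0.39 and -0.22 with median centring, and Rhox6 was at -0.08 with voom and at -0.05 to 0.09 without single libraries. Between PGCs and ESC-PGCLCs, quantile normalization put Rhox1, Rhox10 and Rhox13 at -0.32, -0.56 and -0.49. Median centring put Rhox1, Rhox5, Rhox6, Rhox10 and Rhox13 at -0.41, -0.51, -0.16, -0.56 and -0.48, and voom put Rhox5 and Rhox10 at -0.03 each. In the interaction, Rhox10 was at -0.37 with a pseudocount of 0.1, -0.39 with quantile normalization, -0.60 with median centring and -0.69 with voom, and Rhox13 was at -0.33 with quantile normalization, -0.50 with median centring and -0.09 with voom. Without single libraries, Rhox6 ranged from -0.07 to 0.2 between pESCs and ESCs, from -0.1 to 1.0 between PGCs and ESC-PGCLCs, from -0.11 to 0.98 between PGCs and pESC-PGCLCs and from -0.18 to 0.09 in the interaction. Rhox1 ranged from -0.03 to 0.42 and Rhox10 from -0.42 to 0.51 between PGCs and ESC-PGCLCs, and Rhox10 from -0.02 to 0.3 in the interaction.

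Depth limits Rhox1 and Rhox10 most, with 0 to 9 reads per stem cell library, and with 2 libraries per group the tests depend on the spread shared between groups.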
